A study of Mus musculus with 8 samples.

Results

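The acute chromate response of Hepa-1 cells was followed across the whole transcriptome, by RNA-seq of 2 treated libraries, from cells given 25 µM Cr(VI) over 90 minutes, and 2 control libraries. Of the 23403 genes in the count table, 13619 passed a filter on low counts and were tested, and the changes below are given for these genes, for lists of genes that share a pathway or mark a cell type, and for each treated library alone. Hepa-1 (Hepa-1c1c7) is an established mouse hepatoma line, so every library comes from a single line of liver tumour cells. The treated cells received chromate in their medium, and the controls received none. The labels of the RNA-seq controls do not say to which of the study's regimens they belong, and the study describes its control cells as passaged like the long-term cultures. Treatment and culture history can therefore not be told apart here. No label says that the libraries of a group came from separate cultures, so the p-values measure the spread between these 4 libraries.

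Chromate, a structural mimic of sulfate, enters cells through anion transporters and is reduced inside the cell, with glutathione among the reductants, to forms that bind DNA and protein and give reactive oxygen species. Genes of the p53, NRF2 and metal response pathways and the immediate early genes are the classical readouts of such stress. Hepatocytes make most of the proteins of blood plasma, such as albumin, fibrinogen and the apolipoproteins, from genes driven by the HNF4, FOXA and C/EBP families of transcription factors, among others, and hepatoma lines retain this program in part.

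The libraries held between 32319676 and 37696116 counted reads, and between 16788 and 17328 genes had at least 1 read. The controls differed little from each other, although by more than counting noise alone (a chi-square of 2.15 per degree of freedom over genes). Of the tested genes, 83 (0.609%) lay at least 2-fold apart between the controls, and 1404 (10.3%) did so between the treated libraries, which thus stood far apart. The median absolute difference from the mean of the controls was 0.311 on the log2 scale in treated library 1 and 0.483 in treated library 2, beside 0.0584 between the controls. All levels are normalised CPM (counts scaled to library size by the TMM method). Most results are given for each treated library, since a mean over them hides this difference. A log2 fold change or median given alone is over both.

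**Figure D1:**
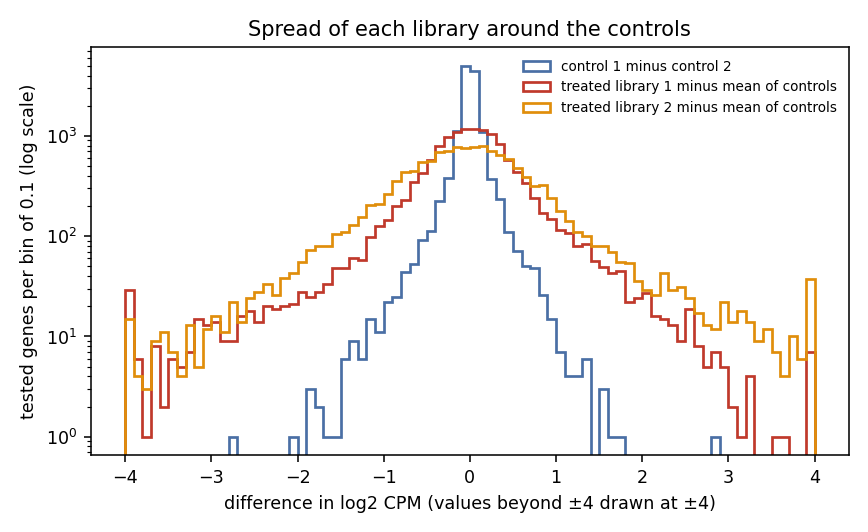
Spread of the libraries over the 13619 tested genes. The x axis is the difference in log2 CPM and the y axis the number of genes in each bin on a log scale; the lines stand for control 1 minus control 2 and for each treated library minus the mean of the controls. The control line is the narrowest and treated library 2 the widest, with median absolute differences of 0.0584 and 0.483, and treated library 1 lies between them at 0.311.

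Across all tested genes, 243 rose and 388 fell after 25 µM Cr(VI) in the two-sided quasi-likelihood test of edgeR, at a Benjamini-Hochberg adjusted p under 0.05. These are 1.78% and 2.85% of the genes tested. The adjusted p-values of the called genes started at 0.0145, so that none passed a threshold of 0.01, while 4176 genes had an unadjusted p under 0.05 and DESeq2 called 2015. Among the called genes, falls were larger than rises. The median log2 fold change of the called genes was 1.43 for those that rose and -1.72 for those that fell, and 71 genes fell by at least 8-fold against 26 that rose as much. An 8-fold fall within 90 minutes corresponds to an RNA half-life of 30 minutes if no new RNA is made. No half-life was measured, and whether the falls arose within the 90 minutes was not tested. With control 1 left out 294 genes were called, and 287 with control 2 left out. With treated library 1 or 2 left out, the spread comes from the controls alone and 10995 or 9333 genes were called.

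Each treated library alone was read without a test, by counting genes at least 2-fold above the higher control or at least 2-fold below the lower one. Treated library 1 held 634 genes above both controls (4.66% of those tested) and 721 below (5.29%). Treated library 2 held 1141 above (8.38%) and 1428 below (10.5%). In both libraries 472 genes were above (3.47%) and 511 below (3.75%), and 4 genes were above in either library and below in the other. Without the 2-fold limit, both treated libraries lay on the same side of both controls for 9026 genes (66.3%), so that such a position alone says little of a gene. Another 666 genes were above in library 2 and within 2-fold in library 1, and 161 the other way around. Of the 631 called genes, 456 lay 2-fold outside the controls in both libraries in the same direction, and 99 stayed within 2-fold in both, namely 39 that rose and 60 that fell. The call thus selects changes on which the treated libraries do not differ much, and the 666 genes above in library 2 and not in library 1 include 24 called genes.

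Of the called genes with a mean of at least 2 on the log2 CPM scale, Fgg, Tnr and Apob rose most. Fgg, the gamma chain of fibrinogen (GeneID 99571, mm10 chromosome 3, 83007724 to 83015056), had 6.62 and 10.7 CPM in the treated libraries against 0.230 and 0.205 in the controls, from 224 and 309 reads against 8 and 8. Tnr, the matrix glycoprotein tenascin-R known from brain, had 8.99 and 7.15 CPM against 0.403 and 0.281. Apob, the structural protein of very low density lipoprotein, had 18.8 and 11.9 CPM against 0.662 and 0.665. The treated libraries lay far above the controls for all 3 genes, and the log2 fold changes were 5.29 (SE 0.40), 4.55 (SE 0.31) and 4.53 (SE 0.33), each with an adjusted p of 0.0282 (edgeR). Agt (angiotensinogen, log2 fold change 3.84), Padi3 (a peptidylarginine deiminase, 3.83), Tspoap1 (3.44), Ptprq (a receptor tyrosine phosphatase, 2.86), Ms4a4d (2.66), AW549542 (2.63) and Pgm5 (2.51) followed. Sprr1a, a small proline-rich protein of the cornified envelope, had 633 and 1014 CPM against 125 and 136, and Enpp2, which encodes the secreted lysophospholipase autotaxin, had 265 and 203 CPM against 36.9 and 38.3. Fgg, and Tnr with 14 and 11 control reads, had too few to pass the filter on low counts by the controls alone. Both genes passed through the treated libraries, so that selection favours a difference between the groups and does not set its size. These 12 genes kept their call with either control left out.

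Among the falls, under the same limit on the mean, Dhrs9, Nxf3 and Col5a2 led. Dhrs9, a retinol dehydrogenase of the short-chain family, had 0.207 and 0.138 CPM in the treated libraries against 8.26 and 9.18 in the controls (log2 fold change -5.61, SE 0.30, adjusted p 0.0282, edgeR). These were 7 and 4 reads against 287 and 359, so Dhrs9 passed the filter on low counts through the controls. Selection thus favours a difference between the groups here as well. Nxf3, an X-linked member of the family of mRNA export factors, had 2.13 and 2.07 CPM against 71.3 and 72.9, with a log2 fold change of -5.10 (SE 0.14) and the smallest adjusted p of all genes, 0.0145 (edgeR). The pairs of libraries were almost level within each group for Nxf3 and far apart between the groups. Col5a2, a chain of type V collagen, had 1.06 and 1.10 CPM against 20.2 and 20.5. The other falls in the first 12 were Sprr2h (log2 fold change -4.22), Akr1c18 (a hydroxysteroid dehydrogenase, -4.19), Ifi44 (interferon-induced, -4.11), the receptor gene Adgrf4 (-3.76), 3300005D01Rik (-3.72), Blnk (an adaptor of B cell receptor signalling, -3.65), Ly9 (a SLAM family receptor, -3.59), the pseudogene Gpx2-ps1 (-3.56) and Scel (sciellin of the cornified envelope, -3.54). Each kept its call with either control left out. Nxf3 overlaps 5730412P04Rik and Bex4 in the annotation, and without a stated strand setting the reads of overlapping genes cannot be told apart.

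**Figure D2:**
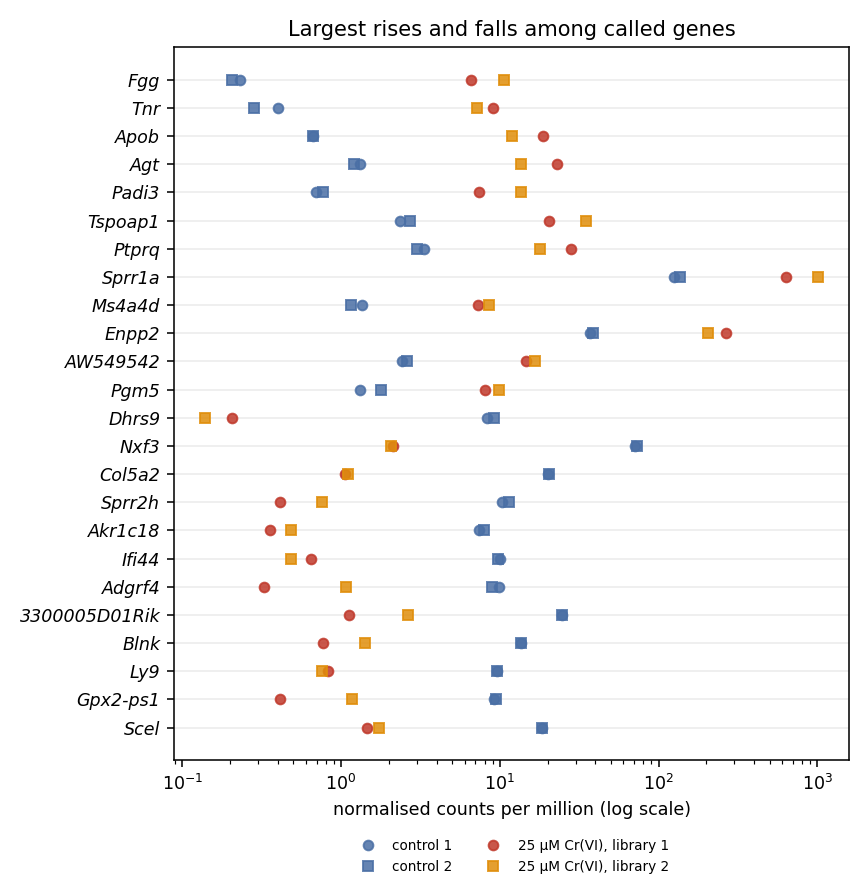
Levels of the 12 genes with the largest rises and the 12 with the largest falls among the called genes. The x axis is normalised CPM on a log scale; each row is a gene, blue symbols are the controls and red and orange symbols the treated libraries 1 and 2. In each row both treated symbols lie on the same side of both controls, for Nxf3 at 2.13 and 2.07 against 71.3 and 72.9.

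Liver cell identity was first read from the genes of hepatocyte plasma proteins. Of 67 listed genes 36 were tested, and 10 of these rose and 1 fell, beside 1.78% and 2.85% of all tested genes. Their median log2 fold change was 1.52, with 1.17 in library 1 and 1.72 in library 2, beside 0.00 for all tested genes in library 1 and -0.04 in library 2. At least 2-fold above both controls were 20 of the 36 in library 1, 21 in library 2 and 20 in both, beside 4.66%, 8.38% and 3.47% of all tested genes, and 2 were at least 2-fold below both controls in library 2. The untested 31 genes had few reads, at most the 26 and 7 reads against 1 and 2 of Ahsg (fetuin-A), and 11 of the list had none in any library. Genes that pass the filter through the treated libraries alone favour rises, so the counts and the median describe the tested members and not the whole list. In bulk RNA, more cells that make a protein and more RNA per cell cannot be told apart.

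The 10 members that rose were Alb, Ttr, Apob, Fgb, Fgg, Serping1, Agt, Hp, Rbp4 and Itih2. Alb, serum albumin, had 3667 and 3550 CPM in the treated libraries against 905 and 948 in the controls (log2 fold change 1.96, SE 0.20, adjusted p 0.0317, edgeR). Per kilobase of exon, Alb went from 449 to 1751 CPM while Fgg went from 0.103 to 4.09, so the largest fold was at a level far below that of albumin. Fgb, the beta chain of fibrinogen, had 18.8 and 20.5 CPM against 3.77 and 3.45. Hp, the haemoglobin scavenger haptoglobin, had 5.56 and 5.52 CPM against 0.892 and 0.870, and the retinol carrier Rbp4 had 492 and 555 against 223 and 233. In each case both treated libraries were above both controls. Itih2, a heavy chain of the inter-alpha-trypsin inhibitor, had 196 and 233 CPM against 83.4 and 77.9, and Ttr (transthyretin) and Serping1 (the C1 inhibitor) rose from under 1 CPM to levels of 0.932 to 1.97. The member that fell was F5, coagulation factor V, with 6.77 and 5.83 CPM against 13.4 and 14.4 (log2 fold change -1.14). Trf (transferrin) had 1432 and 2076 CPM against 1094 and 1111, and Fga, the third fibrinogen chain, 0.857 and 3.07 against 0.144 and 0.205, and neither passed the test. Afp, the fetal counterpart of albumin and a hepatoma marker, had 129 and 178 CPM against 149 and 151, with library 1 below and library 2 above the controls. Rbp4, Itih2, Serping1 and F5 were chosen after their values were seen. Of the 11 calls, 6 were kept without control 1 and 5 without control 2. Alb was among those lost.

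The starts of 4 of these genes are shown because their members moved together, with the bases just before the annotated start and, in capitals, matches to the letters GTTAAT, found in promoters of liver genes, or to the HNF4 core motif CAAAGT on either strand. The sequences are from RefSeq, build GRCm38.p6 (mm10), each printed 5′ to 3′ on the strand of the gene.
Alb, chr5:90460750-90460869 (plus strand): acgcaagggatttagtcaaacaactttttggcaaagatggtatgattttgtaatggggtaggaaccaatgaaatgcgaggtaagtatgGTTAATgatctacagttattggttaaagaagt
Fgb, chr3:83049864-83049983 (minus strand): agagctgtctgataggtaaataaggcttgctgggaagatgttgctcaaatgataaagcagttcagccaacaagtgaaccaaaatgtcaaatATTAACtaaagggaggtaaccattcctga
Itih2, chr2:10130684-10130803 (minus strand): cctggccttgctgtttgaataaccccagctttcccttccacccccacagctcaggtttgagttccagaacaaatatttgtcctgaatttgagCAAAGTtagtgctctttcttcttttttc
Fgg, chr3:83007604-83007723 (plus strand): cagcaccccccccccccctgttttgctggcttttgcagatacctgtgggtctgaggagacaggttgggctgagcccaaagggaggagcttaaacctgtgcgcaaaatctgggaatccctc

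Alb and Fgb each hold a match to GTTAAT within 120 bases, which in Fgb reads as its reverse complement, and Itih2 holds CAAAGT. Fgg, which led the rises, holds neither in these bases. Of 8 plasma protein genes whose upstream bases were read, 3 held a match, and Fgg, Apob, Agt, Rbp4 and F5 held none. Over 300 bases around the start, GTTAAT was found in 8 of the 26 tested plasma protein genes that have a promoter in the RefSeq table (30.8%), beside 4.19% of all 10669 promoters of tested genes. Among genes that rose the share was 7.65%, and among those that fell 5.48%. CAAAGT was found in 26.9% of the plasma protein promoters, in 38.7% of those of the NRF2 target list and in 11.8% of all. A match describes the letters in the window and no binding was measured.

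Other lists of hepatocyte genes are given beside the 4.63% of all tested genes that were called. Of 54 listed metabolic enzymes of hepatocytes 22 were tested, the 2 that changed both fell, and the median was 0.16 (0.04 in library 1 and 0.29 in library 2). Adh1, the liver alcohol dehydrogenase, had 6.53 and 5.04 CPM against 27.8 and 29.7 (log2 fold change -2.31), and Ttpa, the vitamin E transfer protein, had 1.42 and 1.07 against 5.03 and 5.27 (-2.04). Both groups were well apart for each gene. Aldh1a1, a retinal dehydrogenase, had 1010 and 1117 CPM against 896 and 911 and did not pass the test. The call of Ttpa was lost with either control left out.

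Of 34 liver-enriched transcription factors 24 were tested, and Tbx3, a T-box repressor, rose, with 243 and 196 CPM against 75.6 and 75.6 (log2 fold change 1.54, SE 0.15, adjusted p 0.0312, edgeR). The list's median was 0.06, with 0.20 in library 1 and -0.18 in library 2, and its sign turned without TMM scaling (-0.04), with treated library 1 left out (-0.17) and with control 2 left out (-0.02). Hnf4a, a defining factor of hepatocytes, had 0.443 and 0.518 CPM against 0.230 and 0.256. Foxa2 had 77.2 and 54.4 CPM against 52.98 and 54.1, with library 2 level with the controls, and Cebpb 163 and 146 against 153 and 129. Cebpa, Onecut1, Prox1 and Gata6 had no read in any library. Of the cell type markers, the keratins Krt8 (1036 and 1329 CPM against 943 and 1001) and Krt18 (1105 and 1538 against 1079 and 1095) were high in every library. Alb, Afp, Trf and the simple keratins were thus present as the hepatoma label has it, while part of the defining factors of hepatocytes was at or near 0 in control and treated cells.

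Markers of other cell types were checked beside these rises. Of 18 neuronal markers 16 were under 1 CPM in all libraries, and their summed level was 6.65 and 10.3 CPM in the treated libraries against 5.32 and 5.29. Of the 6 tested neuronal markers Gad1, which makes the transmitter GABA, rose, beside 1.78% of all tested genes. It went from 0.0288 and 0.0256 CPM to 0.502 and 0.863, and the list's median was 0.91 (0.21 in library 1 and 1.25 in library 2). Each control held 1 read of Gad1, which passed the filter through the treated libraries, so that its rise and this median favour higher values by selection. Of 12 endothelial markers 9 were under 1 CPM, with sums of 11.5 and 11.7 against 7.80 and 8.11. Of the 5 tested, Pecam1, an adhesion molecule of endothelium, rose from 0.489 and 0.486 CPM to 1.77 and 2.24, beside 1.78% of all tested genes. Of 18 macrophage and leukocyte markers 13 were under 1 CPM and none of the 5 tested was called by edgeR (3 had an unadjusted p under 0.05 and DESeq2 called 1); the sums were 115 and 111 against 120 and 123. Ptprc, Cd3e and Cdh5, which define leukocytes and endothelium, are examples of markers that failed the filter. Of the 10 tested fibroblast and stellate markers Dcn rose, with 959 and 998 CPM against 436 and 443, beside 1.78% of all tested genes. Lum and Postn failed the filter. The sums of this list were 2356 and 2718 CPM against 2000 and 2042, and Vim had 1052 and 1279 against 1277 and 1309. Of the 10 tested bile duct and gut markers Vil1 (31.4 and 26.0 CPM against 11.8 and 13.3) rose and Lgr5 (69.0 and 60.3 against 125 and 123) fell, beside 1.78% and 2.85% of all tested genes. The sums of this list were 1121 and 1425 CPM against 1669 and 1719, while its median went the other way, at 0.25 (0.25 in library 1 and 0.24 in library 2). Krt7 had 586 and 791 CPM against 775 and 809 and Spp1 181 and 260 against 537 and 554, and neither passed the test. The calls of Gad1, Pecam1, Dcn, Vil1 and Lgr5 were lost with either control left out, and the part of such cells in the rises was not tested.

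Genes of the extracellular matrix moved in both directions. Of 63 listed 43 were tested, 7 rose and 3 fell, beside 1.78% and 2.85% of all tested genes, and the median was 0.28 (0.20 in library 1 and 0.34 in library 2). Lama5, the alpha-5 chain of laminin, had 1617 and 1395 CPM against 512 and 503 (log2 fold change 1.57). Col18a1, the source of endostatin, had 35.7 and 40.6 CPM against 9.75 and 8.39 (2.07), and Lamb3, the beta-3 chain of laminin, 19.3 and 17.3 against 5.15 and 4.27 (1.96). The treated libraries were above both controls by about the same amount for each. Bgn, the proteoglycan biglycan, fell, with 4.02 and 4.83 CPM against 14.0 and 14.7 (-1.70), as did Col5a2. Fn1 (fibronectin) had 2233 and 1999 CPM against 1516 and 1486 and did not pass the test. Of the 10 calls 4 were kept without control 1 and 3 without control 2, and Lama5 was lost both times. Of the cornified envelope list, Sprr1a and Padi3 rose and Sprr2h and Krt80 (14.9 and 14.6 CPM against 36.7 and 37.7) fell, which is 2 of 29 tested in each direction. The Sprr genes are close copies of each other, and how their shared reads were counted is not stated.

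Of 25 listed and tested genes of cholesterol synthesis 11 fell, beside 2.85% of all tested genes, and no other was called, with a median log2 fold change of -0.87 (-0.70 in library 1 and -1.05 in library 2). Lss, which closes the sterol ring as lanosterol synthase, had 46.6 and 39.05 CPM against 118 and 120 (log2 fold change -1.47, SE 0.13, adjusted p 0.0295, edgeR). Hsd17b7 had 48.7 and 41.7 CPM against 121 and 115 (-1.38) and Nsdhl 39.8 and 32.5 against 90.1 and 89.5 (-1.31); both act on the sterol after lanosterol. Upstream, the mevalonate enzymes Mvd (19.9 and 15.7 CPM against 43.1 and 41.7) and Mvk (21.2 and 18.6 against 39.7 and 40.2) fell as well. Library 2 was the lower of the treated libraries for each of these 5 genes. Msmo1, a sterol oxidase, had 125 and 101 CPM against 222 and 222 (-0.97). Sqle (squalene epoxidase) had 267 and 138 CPM against 377 and 375 and did not pass the test, since the treated libraries differed. At least 2-fold below both controls were 5 of the 25 in library 1 and 13 in library 2, beside 5.29% and 10.5% of all tested genes, and 2 were at least 2-fold above in each library, beside 4.66% and 8.38%.

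Most calls in cholesterol synthesis were lost without TMM factors or with fewer controls, and all 11 were kept with upper-quartile factors. Leaving out the TMM factors shifted the median of all genes by -0.11 on the log2 scale, and 3 of the 11 were then kept. With either control left out 3 were kept, namely Lss, Hsd17b7 and Nsdhl. The list's median was -0.96 without TMM factors, -0.89 without control 1 and -0.88 without control 2. In fatty acid synthesis 3 of 21 tested genes fell, beside 2.85% of all tested genes, with a median of -0.40. They are Acaca, the first committed enzyme (40.3 and 32.9 CPM against 116 and 110, log2 fold change -1.62), Acss2 (4.02 and 3.97 against 10.01 and 10.3), which makes acetyl-CoA from acetate, and the desaturase Scd1 (290 and 224 against 571 and 564). Acaca remained called with either control left out. None of the 19 tested genes of fatty acid oxidation and ketone synthesis was called by edgeR, with 7 at an unadjusted p under 0.05 and 3 called by DESeq2, and their median was -0.21. Npc1, which exports cholesterol from the lysosome, fell, with 120 and 95.1 CPM against 230 and 221. Its call was lost without TMM factors and with either control left out.

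The starts of 3 cholesterol synthesis genes are shown with matches to the CCAAT box on either strand in capitals, since the share of promoters with this box was higher here than in the other lists searched.
Lss, chr10:76531485-76531564 (plus strand): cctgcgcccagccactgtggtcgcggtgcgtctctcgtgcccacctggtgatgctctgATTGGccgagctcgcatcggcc
Mvk, chr5:114444149-114444263 (plus strand): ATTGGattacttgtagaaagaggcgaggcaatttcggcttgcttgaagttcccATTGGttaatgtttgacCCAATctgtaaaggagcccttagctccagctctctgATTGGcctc
Nsdhl, chrX:72918401-72918520 (plus strand): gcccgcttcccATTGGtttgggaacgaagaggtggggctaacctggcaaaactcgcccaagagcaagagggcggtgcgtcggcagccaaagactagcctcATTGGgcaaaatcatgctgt

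The bases of Mvk hold 4 matches, in both orientations, and those of Nsdhl hold 2. Of 7 cholesterol synthesis genes whose upstream bases were read, 6 held a match and Acat2 held none. Of 17 cholesterol synthesis genes with a promoter in RefSeq, 15 held CCAAT within 300 bases (88.2%), beside 39.9% of all promoters, 37.2% of those of genes that rose and 43.2% of those of genes that fell. The E box CACGTG was in 17.6% of the cholesterol promoters and in 9.93% of all.

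Interferon-induced genes fell in part. Of 28 genes, all tested, 7 fell and 1 rose, beside 2.85% and 1.78% of all tested genes, the median was -1.09 (-0.90 in library 1 and -1.27 in library 2), and 9 were at least 2-fold below both controls in both libraries, beside 3.75% of all tested genes. In library 2, 3 were at least 2-fold above. Irf7, the transcription factor that amplifies the interferon response, had 2.42 and 1.93 CPM against 13.9 and 15.8 (log2 fold change -2.76, SE 0.22, adjusted p 0.0282, edgeR). Isg15, a ubiquitin-like modifier, had 2.48 and 1.80 CPM against 7.71 and 9.28 (-1.98), and Oas1a, an oligoadenylate synthetase, 12.7 and 9.70 against 35.8 and 36.0 (-1.68). Ifi44, Rsad2 (0.621 and 0.380 CPM against 2.33 and 2.51), Oasl1 (13.8 and 16.3 against 31.8 and 32.8) and Ifi35 also fell. Ifi35 and Psmb8 were chosen after their values were seen; Psmb8, an immunoproteasome subunit, rose (35.1 and 41.7 CPM against 18.1 and 18.1, log2 fold change 1.09). B2m (1920 and 2164 CPM against 979 and 990) and H2-D1 (1176 and 1512 against 768 and 792), the light and a heavy chain of class I molecules, lay above the controls in both libraries without passing the test. Of the 8 calls 4 were kept without control 1 and 3 without control 2.

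The starts of Isg15 and Rsad2 are shown with matches to GAAANNGAA, part of the interferon response element, in capitals, either strand; this motif was added after the falls were seen.
Isg15, chr4:156200819-156200938 (minus strand): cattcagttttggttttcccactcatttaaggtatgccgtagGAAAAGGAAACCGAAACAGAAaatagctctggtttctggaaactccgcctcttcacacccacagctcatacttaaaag
Rsad2, chr12:26456453-26456572 (minus strand): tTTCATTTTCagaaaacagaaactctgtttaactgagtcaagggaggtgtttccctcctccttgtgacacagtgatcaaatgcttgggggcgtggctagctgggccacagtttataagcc

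In Isg15 overlapping matches form a single stretch of 21 bases, and in Rsad2 the match lies on the opposite strand. Of 6 genes of the list whose upstream bases were read, these 2 held a match, and Oas1a, Ifi35, Ifi44 and Psmb8 held none. Over 300 bases it was found in 11 of 23 promoters of the list (47.8%), beside 7.24% of all, 9.35% of those of genes that fell and 4.92% of those of genes that rose.

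Inflammatory NF-κB targets moved in both directions. Of 32 tested genes 5 rose and 3 fell, beside 1.78% and 2.85% of all tested genes. Those that rose include the inhibitors of the pathway Nfkbia (78.3 and 81.6 CPM against 36.7 and 38.7, log2 fold change 1.08) and Tnfaip3 (60.4 and 67.5 against 32.9 and 32.8), with Relb (40.4 and 44.0 against 21.5 and 22.2; like Tnfaip3 chosen after its values were seen), Traf1 and Socs3 (73.7 and 94.9 against 35.0 and 37.0). Those that fell are secreted proteins. Ccl7, a monocyte chemokine, had 0.946 and 1.48 CPM against 12.9 and 11.8 (log2 fold change -3.35), Cxcl5, a neutrophil chemokine, had 76.9 and 66.7 against 223 and 221 (-1.63), and the acute-phase protein Saa3 had 2.75 and 3.18 against 9.15 and 8.88 (-1.60). With either control left out, 2 of the 8 calls were kept, Ccl7 and Cxcl5.

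Replication-dependent histone genes, which encode the histones of new chromatin and whose transcripts mostly end in a stem-loop in place of a poly-A tail, fell in part in these poly-A selected libraries. Of 47 listed 45 were tested and 15 fell, beside 2.85% of all tested genes, with a median log2 fold change of -0.85 (-1.10 in library 1 and -0.81 in library 2). At least 2-fold below both controls were 25 in library 1 and 18 in both libraries, beside 5.29% and 3.75% of all tested genes. The summed level of the list was 194 and 210 CPM against 605 and 624. H1f2, a linker histone, had 32.5 and 33.7 CPM against 197 and 204, which was a log2 fold change of -2.60 (SE 0.11, adjusted p 0.0244, edgeR). H1f3 had 3.16 and 2.38 CPM against 16.5 and 16.8, and H1f4 had 2.63 and 2.59 against 15.04 and 15.1. Within each group the libraries were close, and the groups were far apart. Of the core histones called, 11 were H2B genes, among them H2bc4 (8.90 and 10.3 CPM against 38.3 and 40.7), H2bc7 and H2bc13, and 1 was an H2A gene, H2ac18 (20.5 and 25.4 against 44.4 and 47.0). Histone genes are near-copies of each other, so reads could be split among them. The library preparation selects for poly-A, and a change in the share of tailed transcripts cannot be told apart from a change in level. Of the 15 calls 12 were kept without control 1 and 13 without control 2.

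The starts of H1f3 and H1f2 are shown with CCAAT and TATAAA in capitals, either strand; the bases of H1f3 hold both and those of H1f2 hold CCAAT.
H1f3, chr13:23554912-23555031 (plus strand): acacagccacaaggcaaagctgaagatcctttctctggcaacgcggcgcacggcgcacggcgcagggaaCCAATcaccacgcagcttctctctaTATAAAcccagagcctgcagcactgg
H1f2, chr13:23738687-23738806 (plus strand): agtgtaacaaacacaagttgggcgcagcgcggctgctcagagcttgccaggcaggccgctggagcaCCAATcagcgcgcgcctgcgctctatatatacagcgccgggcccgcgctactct

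Of 41 histone genes with a RefSeq promoter, 82.9% held CCAAT and 58.5% held TATAAA, beside 39.9% and 7.78% of all promoters. TATAAA was found in 14.8% of the promoters of genes that fell and in 9.29% of those that rose.

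Of 48 tested genes of DNA replication 1 fell, a share near the 2.85% of all tested genes. It was E2f2 (2.87 and 2.35 CPM against 6.47 and 7.14), and the call was lost with either control left out. The median of the list was -0.09, with -0.31 in library 1 and 0.04 in library 2.

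Of 24 tested noncoding RNAs, a list of nuclear transcripts and hosts of small nucleolar RNAs, 2 rose and 2 fell, beside 1.78% and 2.85% of all tested genes, with a median of 0.74 (0.42 in library 1 and 0.82 in library 2). Neat1, the scaffold RNA of paraspeckles, had 20.4 and 19.2 CPM in the treated libraries against 101 and 97.8 in the controls (log2 fold change -2.32, SE 0.11, adjusted p 0.0278, edgeR). Malat1 had 40.1 and 41.4 CPM against 142 and 135 (-1.77, SE 0.11, adjusted p 0.0282). The treated libraries were level with each other for both. Zfas1 and Gas5, both hosts of small nucleolar RNAs, rose, with Zfas1 at 151 and 239 CPM against 58.6 and 58.6 (log2 fold change 1.73) and Gas5 at 128 and 163 against 65.5 and 64.4 (1.16). In library 2, 9 of the 24 were at least 2-fold above and 3 below both controls, beside 8.38% and 10.5% of all tested genes, and in library 1 2 were above and 2 below, beside 4.66% and 5.29%. The call of Gas5 was lost with either control left out.

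**Figure D3:**
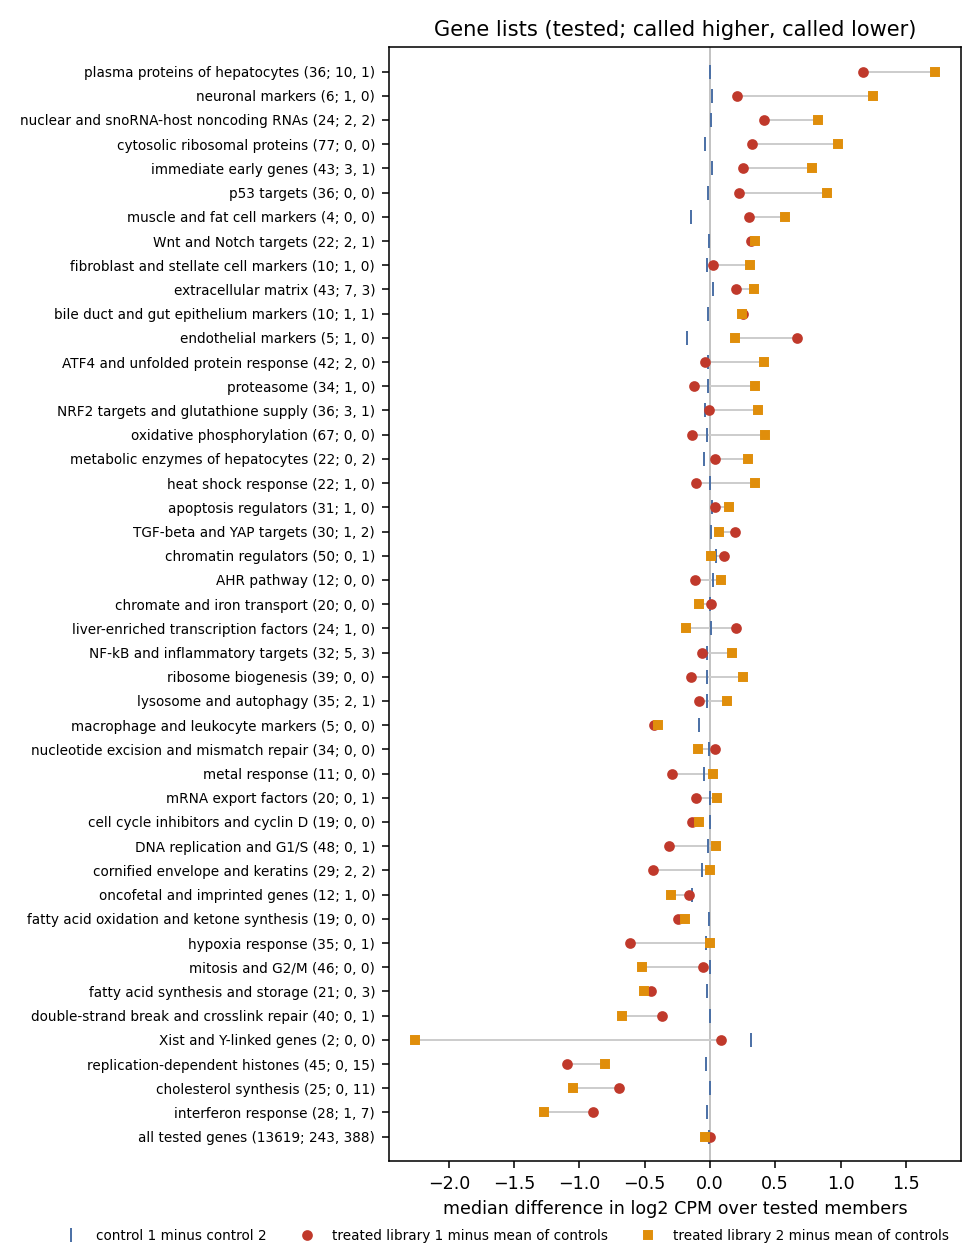
Median difference of each gene list in each treated library. The x axis is the median difference in log2 CPM over the tested members; circles are treated library 1 and squares treated library 2, each minus the mean of the controls, and ticks are control 1 minus control 2. Plasma proteins (1.17 and 1.72) lie high in both libraries, cholesterol synthesis (-0.70 and -1.05), interferon response (-0.90 and -1.27) and histones (-1.10 and -0.81) lie low in both, and p53 targets (0.22 and 0.89) and ribosomal proteins (0.32 and 0.98) separate the libraries.

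The p53 targets separated the treated libraries and none passed the test. Of the 36 genes, all tested, edgeR called 0, with 10 at an unadjusted p under 0.05 and 10 called by DESeq2. The median log2 fold change was 0.61, with 0.22 in library 1 and 0.89 in library 2. In library 2, 15 of the 36 lay at least 2-fold above both controls, beside 8.38% of all tested genes, and in library 1 none did, beside 4.66%. Cdkn1a, the cell cycle inhibitor p21, had 438 CPM in library 1 and 1751 in library 2 against 361 and 364 in the controls. Mdm2, the ubiquitin ligase that degrades p53, had 298 and 931 CPM against 421 and 413. Library 1 was thus near the controls for Cdkn1a and below them for Mdm2, and library 2 was above them for both. The growth factor gene Gdf15 had 75.0 and 751 CPM against 250 and 256, which is below the controls in library 1 and above them in library 2.

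Genes of oxidative and metal stress gave the same separation in part. Of 36 tested NRF2 targets 3 rose, all glutathione transferases, and 1 fell, Akr1c18 (described above), beside 1.78% and 2.85% of all tested genes. At least 2-fold outside both controls in both libraries were 2 above and 3 below, beside 3.47% and 3.75% of all tested genes, and 9 were above in library 2, beside 8.38%. Gstm1 had 397 and 440 CPM against 146 and 149 (log2 fold change 1.51, SE 0.13, adjusted p 0.0282, edgeR), Gstm3 had 43.7 and 52.5 against 17.2 and 17.9 (1.45), and Gsta4 had 43.7 and 48.7 against 23.9 and 23.6 (0.96). Both treated libraries were above both controls for each, and the Gstm genes are close copies that may share reads. The median of the list was 0.16, with -0.01 in library 1 and 0.36 in library 2. Hmox1, haem oxygenase 1 and a classical responder to oxidants, had 49.9 CPM in library 1 and 316 in library 2 against 52.1 and 55.2. The ferritin chains Fth1 (2656 and 4583 CPM against 1556 and 1602) and Ftl1 (1582 and 3064 against 1240 and 1260) were above the controls in both libraries and did not pass the test. Nqo1, another classical target and chosen after its values were seen, had 32.1 and 36.3 CPM against 35.3 and 36.5. The calls of the 3 transferases were lost with either control left out.

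The metallothioneins, which bind metal ions and are induced by zinc and cadmium, lay below the controls. Mt1 had 70.97 and 129 CPM against 201 and 218, and Mt2, chosen after its values were seen, had 19.2 and 44.1 against 98.0 and 105. Both treated libraries lay below both controls for each, but the log2 fold changes of -1.07 and -1.68 had adjusted p-values of 0.115 and 0.0916 (edgeR). None of the 11 tested metal response genes was called by edgeR, with 5 at an unadjusted p under 0.05 and 4 called by DESeq2. Of the 20 tested genes of chromate and iron transport none was called either, with 12 at an unadjusted p under 0.05 and 9 called by DESeq2, and the median was 0.07 (0.01 and -0.09).

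Immediate early genes gave a mixed picture. Of 43 tested 3 rose and 1 fell, beside 1.78% and 2.85% of all tested genes, the median was 0.68 (0.25 in library 1 and 0.78 in library 2), and 17 were at least 2-fold above both controls in library 2, 5 in library 1 and 3 in both, beside 8.38%, 4.66% and 3.47% of all tested genes. Another 2 were at least 2-fold below in library 2. The nuclear receptor Nr4a1 had 114 and 137 CPM against 35.8 and 38.0 (log2 fold change 1.77, SE 0.14, adjusted p 0.0282, edgeR), and Id2, an inhibitor of bHLH factors, had 151 and 103 against 45.3 and 46.1 (1.48). Errfi1, a feedback inhibitor of the EGF receptor, rose to 160 and 187 CPM from 86.4 and 87.2, and Klf4 fell to 128 and 126 from 230 and 224. Both treated libraries lay on the same side of the controls for these 4 genes, with library 1 the higher for Id2. Genes chosen after their values were seen show the other pattern. Atf3, a stress-induced bZIP factor, had 34.0 CPM in library 1 and 155 in library 2 against 24.4 and 24.1, and Fosl1, an AP-1 subunit, had 61.2 and 353 against 84.8 and 86.9. The calls of Klf4 and Errfi1 were lost with either control left out.

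**Figure D4:**
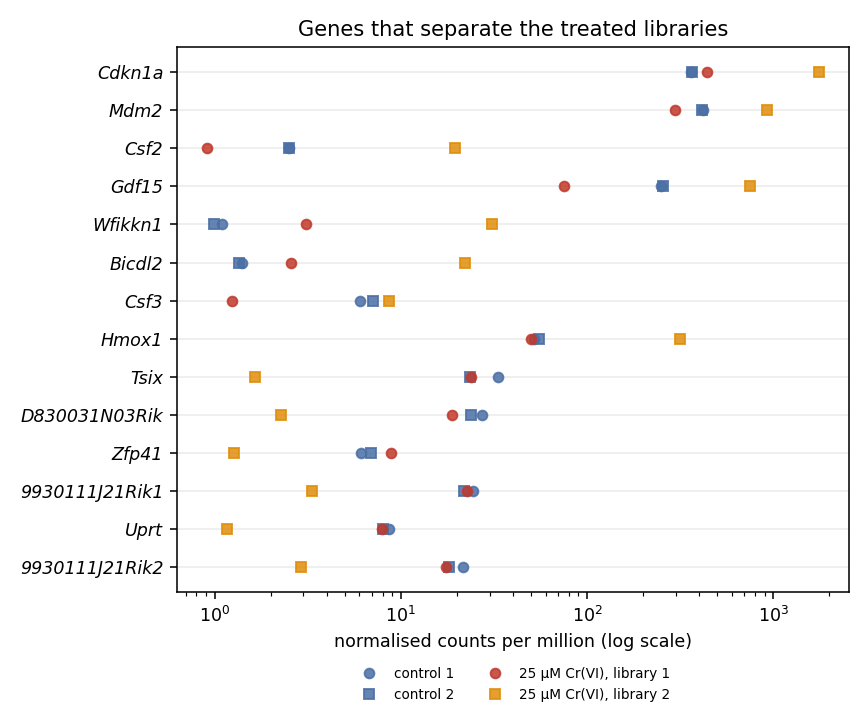
Genes that separate the treated libraries: the p53 targets Cdkn1a and Mdm2, the 6 genes lowest in library 1 relative to library 2 and the 6 highest. The x axis is normalised CPM on a log scale; blue symbols are the controls, red circles treated library 1 and orange squares treated library 2. Library 2 lies above the controls for Cdkn1a (1751 against 361 and 364), Hmox1 and Wfikkn1, and far below them for Tsix (1.66 against 33.1 and 23.7).

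The genes that differed most between the treated libraries were named without a test. Those lower in library 1 were Csf2 (the growth factor GM-CSF, 0.916 and 19.4 CPM against 2.50 and 2.51), Gdf15, Wfikkn1 (3.10 and 30.8 against 1.09 and 0.998), Bicdl2 (2.57 and 22.1 against 1.41 and 1.36), Csf3 (G-CSF, 1.24 and 8.63 against 6.04 and 7.06) and Hmox1. Csf2, Gdf15 and Csf3 were below the controls in library 1 and above them in library 2. Those higher in library 1 were Tsix, the antisense partner of Xist (23.9 and 1.66 CPM against 33.1 and 23.7), D830031N03Rik (18.7 and 2.28 against 27.4 and 23.8), Zfp41 (8.90 and 1.28 against 6.10 and 6.88), Uprt (7.89 and 1.17 against 8.66 and 7.98) and the near-copies 9930111J21Rik1 and 9930111J21Rik2. For each of these genes library 2 was far below the controls and library 1 was closer to them. Library 1 lay above both controls for Zfp41 and below both for D830031N03Rik. Tsix overlaps the more abundant Xist (748 and 404 CPM against 598 and 538), and without a stated strand setting their reads cannot be told apart.

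Stress pathways of translation and protein folding lay higher in library 2. The 42 tested genes of the ATF4 and unfolded protein response had a median of -0.04 in library 1 and 0.41 in library 2. The calls were Trib3 (45.0 and 53.5 CPM against 25.8 and 26.9), a pseudokinase target of ATF4, and Vldlr (28.2 and 23.6 against 12.2 and 12.4), both higher, a share of the list near the 4.63% of all tested genes that were called, and either was lost without TMM factors or with a control left out. Ppp1r15a, the phosphatase subunit GADD34 and chosen after its values were seen, had 81.3 CPM in library 1 and 434 in library 2 against 72.7 and 77.6. Of 22 tested heat shock genes the co-chaperone Dnajb4 rose (92.3 and 111 CPM against 47.6 and 50.1), with list medians of -0.11 and 0.34, and Hsp90ab1 had 2910 and 4351 CPM against 2321 and 2282. The call of Dnajb4 was lost with either control left out. The single calls in this list and the next are near the same share. Of 35 tested hypoxia genes Hk1 (hexokinase, 144 and 151 CPM against 239 and 244) fell, also lost with either control left out, and the medians were -0.61 in library 1 and -0.00 in library 2. Gapdh had 3416 and 5850 CPM against 4624 and 4864, and Pkm 1134 and 2060 against 2141 and 2216, so that both lay below the controls in library 1, and in library 2 Gapdh lay above and Pkm below them.

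All 77 cytosolic ribosomal protein genes lay above the mean of the controls in both treated libraries, and none was called. The median was 0.32 in library 1 and 0.98 in library 2, and 32 of the genes were at least 2-fold above both controls in library 2 and 1 in library 1, beside 8.38% and 4.66% of all tested genes. At an unadjusted p under 0.05 were 36, and DESeq2 called 33. Rps2 had 2561 and 5001 CPM against 2266 and 2285, and Rplp0 2105 and 3594 against 1989 and 2092. Their summed level was 65244 and 103824 CPM against 50603 and 52174. Ribosomal protein genes have many pseudogene copies with which reads may be shared. Short transcripts as a whole lay higher in library 2. Of 5 classes by exon length, the shortest had a median of 0.20 and the longest of -0.31 in library 2, and -0.03 and -0.02 in library 1; the part of length in the result was not tested. The median of the 67 oxidative phosphorylation genes was -0.14 in library 1 and 0.42 in library 2, with 0 called by edgeR, 4 at an unadjusted p under 0.05 and 1 called by DESeq2.

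Mitotic genes lay lower in library 2. Of 46 tested genes edgeR called 0, with 5 at an unadjusted p under 0.05 and 1 called by DESeq2, and the median was -0.05 in library 1 and -0.52 in library 2. In library 2, 9 were at least 2-fold below both controls and in library 1 none, beside 10.5% and 5.29% of all tested genes. Top2a, the topoisomerase of mitotic chromosomes, had 427 and 276 CPM against 589 and 565. Of 40 tested genes of double-strand break and crosslink repair Fanci fell (40.8 and 43.8 CPM against 70.4 and 69.3), a single call, near the 2.85% of all tested genes and lost with either control left out, and the medians were -0.37 and -0.67. None of 34 genes of nucleotide excision and mismatch repair was called by edgeR, with 7 at an unadjusted p under 0.05 and 1 called by DESeq2.

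Gene length and base composition went along with the differences over all tested genes. Of 5 equal classes by length of the gene, the longest had a median log2 fold change of -0.22 (-0.12 in library 1 and -0.37 in library 2), and 146 of these genes fell against 27 that rose. The shortest class had a median of 0.12 (0.03 and 0.20), with 51 that rose and 59 that fell. By GC content of the exons, the median in library 2 went from -0.25 in the lowest of 5 classes to 0.23 in the highest, and in library 1 from -0.04 to 0.12. The part of length and GC content in any of the lists above was not tested.

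Some falls and rises were shared by neighbours on a chromosome; these regions were chosen after their values were seen. On chromosome 17 of mm10, 30 tested genes from Arid1b to Qk (4994297 to 10319361) had a median log2 fold change of -0.88, with -1.07 in library 1, -0.67 in library 2 and -0.01 between the controls. Of the 30, 25 were below the mean of the controls in both libraries. Of all 13619 tested genes, 6856 lay above that mean in library 1 and 6549 in library 2. In the block 12 genes were called, all as falls, beside 2.85% of all tested genes that fell. Ezr, the actin linker ezrin, had 645 and 812 CPM against 2380 and 2366 (log2 fold change -1.70), Arid1b, a subunit of the SWI/SNF remodeller, 72.0 and 47.3 against 192 and 185 (-1.66), Snx9 156 and 182 against 407 and 405 (-1.27), and the RNA-binding protein Qk 191 and 187 against 415 and 399 (-1.10). The treated libraries were far below the controls for each gene. The 5 tested genes before the block had a median of -0.41, and the 15 after it had a median of -0.06 with 1 called. Dynlt1a, Dynlt1b, Dynlt1c and Dynlt1f within the block belong to a family of near-copies that may share reads, and the counts of Dynlt1c and Dynlt1f were equal within 2%. Of the 12 calls 5 were kept with either control left out, Arid1b among them and Ezr not, while without TMM factors 9 were kept and Arid1b was lost.

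**Figure D5:**
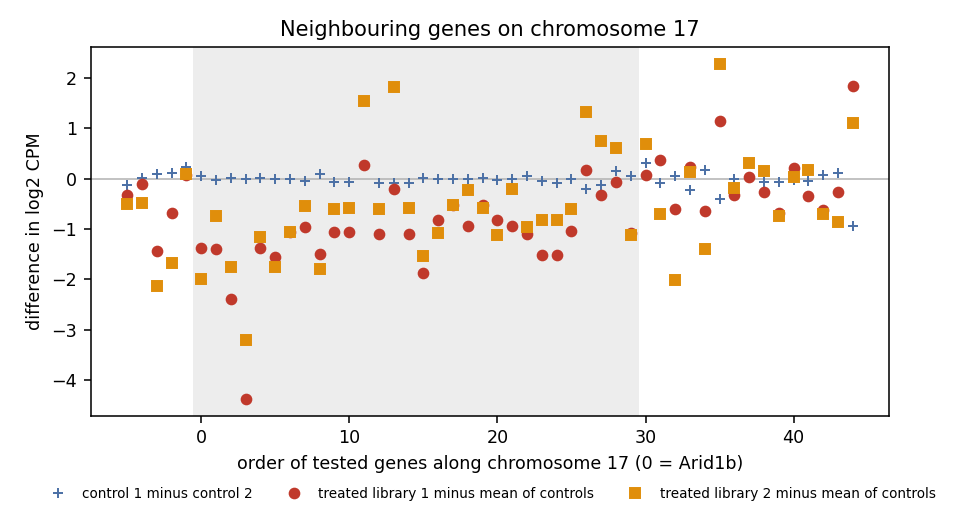
Differences of neighbouring genes on chromosome 17. The x axis is the order of tested genes, counted from Arid1b at 0, and the y axis the difference in log2 CPM; circles and squares are treated libraries 1 and 2 minus the mean of the controls, crosses are control 1 minus control 2, and the grey area holds the 30 genes from Arid1b to Qk. Most circles and squares in the grey area lie below 0 (25 of 30 genes in both libraries), while the crosses stay near 0.

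On chromosome 2, the 10 tested genes from Lsm14b to Cables2 (180024900 to 180273490) formed a run of rises, with medians of 1.11 and 1.33. Runs were searched as at least 5 neighbours that all lay at least 0.5 from the controls on the log2 scale, in the same direction in both libraries. The height of the run thus follows in part from this rule, which other runs of rises and falls also met. Of these 10 genes 5 rose, beside 1.78% of all tested genes, a share that the choice of a high run favours. The 10 genes include Lama5, the proteasome subunit Psma7 (511 and 626 CPM against 237 and 247) and the proteasome receptor Adrm1 (387 and 483 against 196 and 198). Rps21 in the same run had 1430 and 2329 CPM against 559 and 569. Psma7 was the single call among 34 proteasome genes, near the 1.78% of all tested genes that rose, and it was lost with either control left out. Over 256 windows of 40 consecutive genes, the SD of the window medians was 0.178 in library 1 and 0.215 in library 2, beside 0.0196 between the controls. Single genes also spread more in the treated libraries, with median absolute differences of 0.311 and 0.483 beside 0.0584. Grouping by position can therefore not be read from these SDs and was not tested.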

How the data were processed

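RNA of Hepa-1 cells was sequenced after poly-A selection, and the authors aligned the reads with TopHat to mm10 and deposited a table of raw read counts per gene. The counting tool, the annotation and the strand setting are not given in the sources used here. These deposited counts were analysed as they stand, with no correction for length, so CPM values compare libraries for a gene or list and not genes with each other, and values per kilobase of exon are given for Alb and Fgg. The columns of the 2 treated and 2 control libraries were used, each matched to its sample by name. Symbols, positions and promoters came from RefSeq (GRCm38.p6), which matched 23305 of the 23403 gene IDs.

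Genes with low counts were removed with the filter of edgeR (version 4.0.16) and libraries were scaled by TMM. Groups were compared with edgeR's quasi-likelihood test over 2 residual degrees of freedom (two-sided, Benjamini-Hochberg adjusted p under 0.05). The common biological coefficient of variation was 0.193. On counts simulated for this comparison over 13453 genes, the test recovered 29% of genes changed 2-fold and 92% of those changed 4-fold. Each treated library was also set alone against both controls, as outside them by at least 2-fold. The named genes were the 12 largest rises and the 12 largest falls among the calls, provided that the mean log2 CPM reached 2 and that neither treated library fell among the controls. From each list they were up to 6 called members whose mean log2 CPM reached 0, or the 2 highest. Added to these were the 6 genes highest and the 6 lowest in treated library 1 relative to library 2, the 5 highest of all, and the cell type markers. Alternatives were no TMM factors, upper-quartile factors, no filter, DESeq2 (version 1.42.0), a replicate block, other thresholds and leaving out each library. The members, gene lists and tests were chosen with earlier results of these data known. Intervals on shares of reads were not computed, and the depth limits genes with few reads. Results for some genes are not reported here.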

Additional observations from a re-analysis of the deposited data

How the results depend on the processing

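Against 631 called genes (243 higher and 388 lower), DESeq2 called 2015 (978 and 1037) and a fit with the replicate block 2969 (1397 and 1572). The replicate numbers are not said to pair the libraries, so the block count is given for completeness. Across genes, the difference between treated libraries 1 and 2 had a correlation of 0.0909 with that between controls 1 and 2. The controls differed little from each other, so this value cannot decide whether the libraries are paired. Without TMM factors 141 genes were called higher, and 414 of the 631 calls were kept. At an adjusted p of 0.01 the counts were 0, 0 and 0. Leaving out a library gave 287 to 10995 calls, 104 to 5407 higher and 183 to 5588 lower; 204 and 196 of the 631 calls were kept without control 1 and control 2. A limit of 1.5-fold in place of 2-fold put 1463 genes above and 1589 below the controls in library 1, 2392 and 2898 in library 2, and 1039 and 1121 in both. A limit of 4-fold gave 102 and 237, 327 and 300, and 79 and 140. At 2-fold without TMM factors, 617 genes were above and 742 below in library 1, 835 and 2021 in library 2, and 418 and 569 in both. Of the 96 named genes that were called, none changed direction under any alternative. With 2 libraries a group, changes near 2-fold are mostly missed by the test, and the cause of the differences between settings was not tested.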

Other observations

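Targets of Wnt and Notch signalling were above the controls in part. Of 22 tested genes 2 rose and 1 fell, beside 1.78% and 2.85% of all tested genes, the median log2 fold change was 0.37 (0.32 in library 1 and 0.34 in library 2), and 5 genes lay at least 2-fold above both controls in both libraries (3.47% of all tested genes did), namely Lef1, Tbx3, Notch3, Jag2 and Dll1, listed after their values were seen. Jag2, a Notch ligand, had 2.04 and 3.11 CPM against 0.547 and 0.588 (log2 fold change 2.17). Of the 3 calls, that of Tbx3 was kept with either control left out. Of 30 tested targets of TGF-beta and YAP 1 rose and 2 fell, beside those same shares of all tested genes, and the median was 0.13. Snai1, a repressor of E-cadherin, rose (15.8 and 22.8 CPM against 5.72 and 6.27, log2 fold change 1.68), while Ankrd1 (56.9 and 49.6 against 107 and 112) and Cdh2, N-cadherin (58.5 and 57.7 against 103 and 102), fell. None of these 3 calls was kept with either control left out.

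Of 35 tested genes of lysosome and autophagy 2 rose and 1 fell, beside 1.78% and 2.85% of all tested genes, with medians of -0.08 in library 1 and 0.13 in library 2. Map1lc3a, a form of LC3, had 99.7 and 113 CPM against 31.7 and 32.5 (log2 fold change 1.73, SE 0.12, adjusted p 0.0282, edgeR), and Gabarapl1, of the same family, had 228 and 259 against 92.7 and 95.8 (1.37). The gene that fell was Npc1. Bcl2l11, the pro-apoptotic protein BIM, rose as the single call among 31 genes of apoptosis (178 and 189 CPM against 90.8 and 88.6), where 4.63% of all tested genes were called. Map1lc3a kept its call with either control left out, while Gabarapl1, Npc1 and Bcl2l11 did not. Gpc3, an oncofetal glypican of liver tumours, had 265 and 339 CPM against 111 and 111 (log2 fold change 1.44), and this call was also lost with either control left out. It was the single call among 12 tested oncofetal and imprinted genes, beside 4.63% of all tested genes. Their median was -0.14 (-0.16 in library 1 and -0.30 in library 2). In both libraries 1 of the 12 lay at least 2-fold above both controls and 2 below, beside 3.47% and 3.75% of all tested genes.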
